A study of Mus musculus with 4 samples.

Results

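The genes described here encode the matrix phosphoproteins of enamel, dentin and bone and the proteases that process enamel matrix. They were chosen by name, and the 10 members are Amtn, Ambn, Enam, Odam, Mmp20, Klk4, Dspp, Dmp1, Ibsp and Spp1, of 23003 genes with a symbol in the count table. They correspond to 14 of its 30794 RefSeq IDs, because Spp1 has 5 IDs that share nearly all their reads. The rule names the genes and uses no measured value, although earlier results of these data were known when it was set.

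The study sequenced RNA of mTEChi, the MHC class II-high epithelial cells of the thymic medulla. There were 2 libraries labelled WT and 2 labelled Aire-KO, 1 of each from a first experiment and 1 of each from its replicate. The thymi of 4 mice, 4 weeks old and of the B6 background, were pooled for a library, and cells that were I-A/E-high but lacked CD45 and Ly51 were sorted from them. The Aire-KO mice carried the Aire tm1.1Doi allele, whose deleted exons are not named in the sources used here, and the sources name no other allele and no treatment. A pool is 1 sample, so the spread between libraries is that between pools, and differences among the mice of a pool were not measured.

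Aire is a transcriptional regulator of medullary thymic epithelium that drives the expression of many genes otherwise restricted to peripheral tissues, so that developing thymocytes meet their products. People who lack AIRE develop autoimmune disease of several organs, and enamel defects are among its signs. Enamel is laid down by ameloblasts as a protein scaffold, which proteases then remove while the mineral grows. Dentin and bone are mineralised on collagen with the help of acidic, heavily phosphorylated proteins of the SIBLING family, which carry an integrin-binding motif.

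The libraries held 111077552 to 242862323 counts, summed over all RefSeq IDs, so a read shared by several IDs is counted for each. With 1 ID per gene they held 79116869 to 169289499 counts. For Aire itself, the 2 WT libraries held 87229 and 36597 counts (first and replicate experiment) and the 2 Aire-KO libraries held more, 200697 and 175884. Counts over the whole gene cannot check a label when a knockout allele can still be transcribed, and WT and Aire-KO stand here for the libraries so labelled. Each of 15 markers of the sorted cells, among them Epcam, Krt5, Cd74 and H2-Aa, was detected in all 4 libraries, and 0 of the 15 were called with edgeR's quasi-likelihood test (1 lower in WT at an unadjusted p under 0.05, 1 lower with DESeq2, 5 lower with a replicate block, and 1 higher without the Aire-KO library of the replicate experiment). The 15 markers still leaned lower in WT, with a median difference of −0.40 on the log2 scale, against −0.03 over all RefSeq IDs. Both WT libraries lay above both Aire-KO libraries for 2 of the 15 and below them for 6. Over all RefSeq IDs these shares were 28.4% and 20.9%. The lack of calls therefore does not show that the sorted cells were matched between genotypes. Levels between libraries are given as CPM, counts scaled to library size with TMM factors. Levels between genes are given as RPKM, which also divides by the length of the exons and uses library totals alone.

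All 10 members were detected in both libraries labelled WT, and all 10 passed the filter on low counts. Of these, 4 were higher in WT than in Aire-KO at an adjusted p under 0.05, namely Amtn, Ambn, Dspp and Spp1, and 0 were lower, also at an unadjusted p or with DESeq2. Over all 26790 RefSeq IDs tested, 5.58% were higher and 0.258% were lower. When the experiment was entered as a replicate block, 8 of 10 members were higher, against 16.5% of all RefSeq IDs higher and 10.4% lower. Enam, Odam, Ibsp and Klk4 were the members added, and Dmp1 (adjusted p = 0.222) and Mmp20 (adjusted p = 0.0523) were not called. DESeq2 called 7 of 10 (background 11.9%), and library sizes as the only scaling gave 7 (9.22%). Without the WT library of the first experiment 3 were called (7.25%), and without the Aire-KO library of the first experiment 9 (13.4%). Both WT libraries lay above both Aire-KO libraries for 9 of 10 members, as they did for 28.4% of all RefSeq IDs. Amtn, Ambn and Dspp had 0 counts in both Aire-KO libraries, which held for 1.89% of the 26790 RefSeq IDs tested. An ID with 0 counts in both Aire-KO libraries passes the filter only through its WT counts, so it is higher in WT by construction. The share leaves out IDs that the filter removed and cannot serve as a test.

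**Figure D1:**
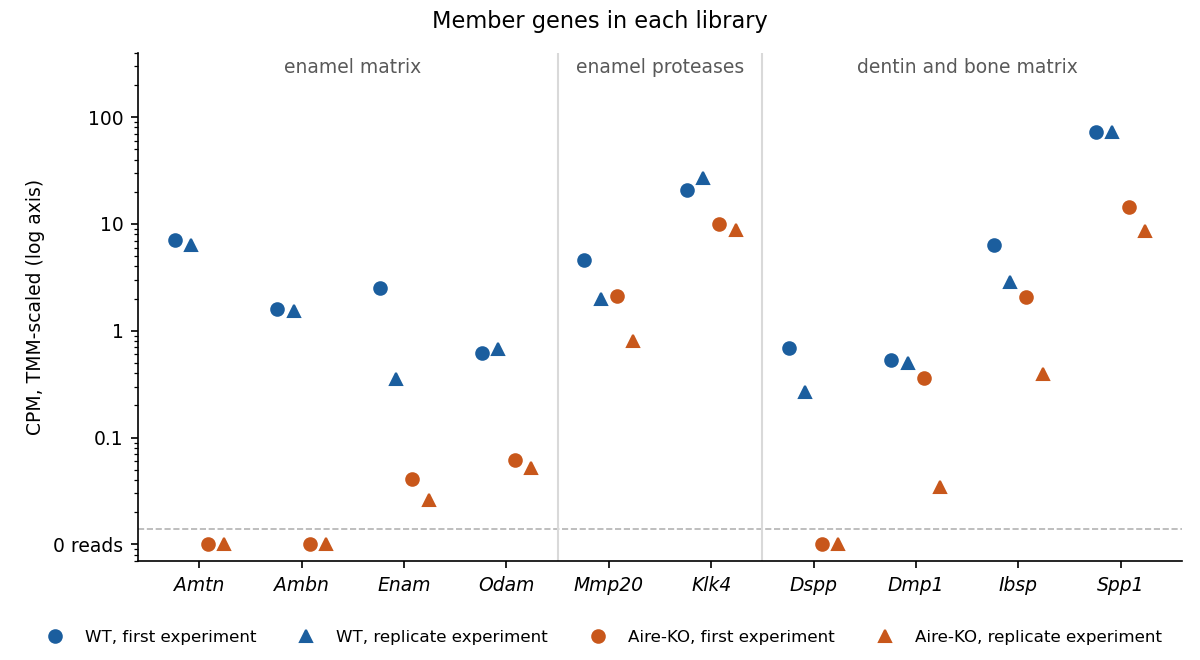
TMM-scaled CPM of the 10 members (log axis) in each of the 4 libraries, with libraries of 0 reads drawn on the line at the bottom, circles for the first and triangles for the replicate experiment. The WT points lie above the Aire-KO points of the same gene except for Mmp20, where the WT library of the replicate experiment (1.99 CPM) lies below the Aire-KO library of the first (2.12 CPM).

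On mm9, 8 of the members lie on chromosome 5, in 2 groups and all on the plus strand. The first group runs from Odam (chr5:88314054-88323197) over Amtn (chr5:88805133-88814941) and Ambn (chr5:88885036-88897552) to Enam (chr5:88917007-88935074). The second holds the SIBLING genes Dspp (chr5:104599731-104609146), Dmp1 (chr5:104631632-104643121), Ibsp (chr5:104728190-104740488) and Spp1 (chr5:104864137-104870069). Of the proteases, Klk4 is at chr7:51136530-51141174 and Mmp20 at chr9:7628231-7674968.

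The promoters of the members that the RefSeq table holds (build GRCm38.p6, 9 of 10 genes, all but Dspp) were read for the AT-rich word TTAAAT, on either strand between bases −50 and −11 from the start of transcription. The word was chosen after the letters had been seen. It was found in 6 of the 9 genes, where a gene counts if any of its listed starts held it. The other listed start of Dmp1 and that of Spp1 did not hold it. Among 32851 RefSeq promoters, counted per promoter and not per gene, 1.88% held it in the same window. Because the word was picked after the members' letters were seen, this share cannot test whether the members hold it more often. A match is a description of the letters and not a site. The 30 bases from −40 to −11 are given for the members with a match in them, 5′ to 3′ on the plus strand, with the matched word in capitals, because the word begins at nearly the same distance from the start in 4 of them, at −31 in Odam, −29 in Amtn and −30 in Ambn and Dmp1.
Odam, chr5:87884970-87884999: agatgggttTTAAATtttaagaggatctga
Amtn, chr5:88376068-88376097: tgtagctgagcTTAAATtccttctacaaac
Ambn, chr5:88455951-88455980: gattggcgctTTAAATaaaggtttctgatc
Dmp1, second listed start, chr5:104202577-104202606: gcagcagagtTTAAATtctgcactgtcaga
Spp1, first listed start, chr5:104435071-104435100: ggagactgtctggaccagcATTTAAATtct
In Spp1 the capitals are TTAAAT on both strands, overlapping by 4 letters. Enam held TTAAAT from −43, just before the bases shown. Of the genes read, Amtn, Ambn and Spp1, which the main test called, held the word. So did Enam, Odam and Dmp1, which it did not call. Ibsp, Klk4 and Mmp20 did not hold it and were not called either. Dspp was called but not read. Since the word was chosen from these same letters, this listing cannot test a link between the word and the calls.

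Among the proteins of the enamel matrix, Amtn, which encodes amelotin, a protein of the late ameloblast that is deposited where the cell meets the enamel surface, differed most clearly. It had 1563 and 760 counts in the WT libraries of the first and the replicate experiment and 0 in both Aire-KO libraries. These are 7.14 and 6.38 CPM in WT, values that differ by 1.12-fold. Against a floor of 3 counts per library, Amtn was at least 346-fold higher in WT in the first experiment and at least 489-fold higher in the replicate experiment (adjusted p = 0.0176, edgeR). Ambn, which encodes ameloblastin, an adhesive protein of the forming enamel layer, had 352 and 182 counts in WT and 0 in both Aire-KO libraries. Its WT levels were close to each other, at 1.61 and 1.53 CPM. The difference was at least 77.9-fold in the first and at least 117-fold in the replicate experiment (adjusted p = 0.0186). Both genes stayed past the threshold in all 10 alternatives tried, which changed the scaling, filter or test, added the block or left out 1 library.

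Enam, which encodes enamelin, the largest protein of the enamel matrix, had 549 and 42 counts in WT and 6 in each Aire-KO library. The WT libraries stood far apart, at 2.51 and 0.352 CPM, a 7.12-fold spread, and the Aire-KO libraries lay at 0.0413 and 0.0261 CPM. Even the lower WT library was 8.53-fold above the higher Aire-KO library, and the difference was 60.7-fold in the first and 13.5-fold in the replicate experiment. The log2 fold change (WT over Aire-KO) was 5.41 (SE 1.19) and missed the threshold by a small margin (adjusted p = 0.0530). With the replicate block it was 4.86 (adjusted p = 0.00208). Enam passed in 8 of 10 alternatives, and without the WT library of the first experiment its log2 fold change was 3.30 (adjusted p = 0.4004).

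Odam, which encodes the odontogenic ameloblast-associated protein of maturing enamel and of the junctional epithelium at the tooth neck, had 136 and 81 counts in WT and 9 and 12 in Aire-KO. Its levels were similar between the libraries of a genotype, at 0.621 and 0.680 CPM in WT and 0.0619 and 0.0522 CPM in Aire-KO. The WT libraries were 10.03-fold and 13.02-fold above the Aire-KO libraries of the same experiment. The log2 fold change of 3.50 (SE 0.80) had an adjusted p of 0.0578, and of 0.0273 with the replicate block. It also passed in DESeq2 (adjusted p = 0.00216), without the Aire-KO library of the first experiment (0.0155), without that of the replicate experiment (0.0362) and with library sizes as the only scaling (0.0358). Without either WT library it did not pass (0.224 without the first, 0.311 without the second).

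The proteases were also detected in the libraries labelled Aire-KO, at levels closer to WT. Klk4 encodes kallikrein 4, the serine protease that clears the matrix while enamel matures. It had 4574 and 3212 counts in WT (20.9 and 26.9 CPM) and 1441 and 2016 in Aire-KO (9.92 and 8.77 CPM). The groups did not overlap, and the difference was 2.11-fold in the first and 3.07-fold in the replicate experiment. Its log2 fold change was 1.36 (SE 0.37, adjusted p = 0.0861, edgeR), which became 1.35 with an adjusted p of 0.00175 with the replicate block. Mmp20 encodes enamelysin, the metalloprotease of the secretory stage, which cuts amelogenin, ameloblastin and enamelin. It had 999 and 237 counts in WT (4.56 and 1.99 CPM) and 308 and 183 in Aire-KO (2.12 and 0.796 CPM). Mmp20 was the only member whose genotypes overlapped, although WT was 2.15-fold and 2.50-fold above Aire-KO within the experiments. The difference was not called (log2 1.17, SE 0.70, adjusted p = 0.433), and without the Aire-KO library of the first experiment it was 2.04 (adjusted p = 0.0493).

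Of the SIBLING genes, Spp1 had by far the most reads. It encodes osteopontin, a phosphoprotein of bone that binds integrins and CD44 and is also secreted by macrophages, osteoclasts and many epithelia. Its counts were 16033 and 8598 in WT and 2114 and 1978 in Aire-KO. The WT levels of 73.2 and 72.1 CPM differed by 1.02-fold, and the Aire-KO levels were 14.5 and 8.60 CPM. WT was thus 5.03-fold higher in the first and 8.38-fold higher in the replicate experiment, with a log2 fold change of 2.65 (SE 0.42, adjusted p = 0.0279). Spp1 stayed past the threshold in all 10 alternatives, where its log2 fold change ranged from 2.31 to 3.08.

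Dspp encodes the precursor of dentin sialoprotein and dentin phosphoprotein, the chief acidic proteins of dentin. It had 152 and 32 counts in WT (0.694 and 0.268 CPM) and 0 in both Aire-KO libraries. It was the member with the lowest level per length in WT, yet at least 33.6-fold higher than Aire-KO in the first and at least 20.6-fold higher in the replicate experiment (adjusted p = 0.0403). Without the WT library of the first experiment, which held most of its reads, the adjusted p was 0.0795.

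Ibsp, which encodes bone sialoprotein, a nucleator of mineral in bone and cementum, had 1384 and 344 counts in WT (6.32 and 2.89 CPM) and 302 and 90 in Aire-KO (2.08 and 0.391 CPM). In both genotypes the first experiment was the higher, by 2.19-fold in WT and by 5.31-fold in Aire-KO. Within the experiments WT was 3.04-fold and 7.37-fold higher. The log2 fold change was 1.90 (SE 0.86, adjusted p = 0.285), and with the replicate block it was 2.23 (adjusted p = 0.00348). It passed without the Aire-KO library of the first experiment (3.55, adjusted p = 0.000271) and without the WT library of the replicate experiment (2.42, adjusted p = 0.0364).

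Dmp1, which encodes dentin matrix protein 1, a regulator of mineral and phosphate made by osteocytes and odontoblasts, had 117 and 59 counts in WT (0.534 and 0.495 CPM) and 53 and 8 in Aire-KO. The Aire-KO libraries differed by 10.5-fold, at 0.365 and 0.0348 CPM. WT was 1.47-fold higher in the first and 14.2-fold higher in the replicate experiment. No difference was called (log2 1.38, SE 1.12, adjusted p = 0.599), but without the Aire-KO library of the first experiment the log2 fold change was 3.86 (adjusted p = 0.0191).

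**Figure D2:**
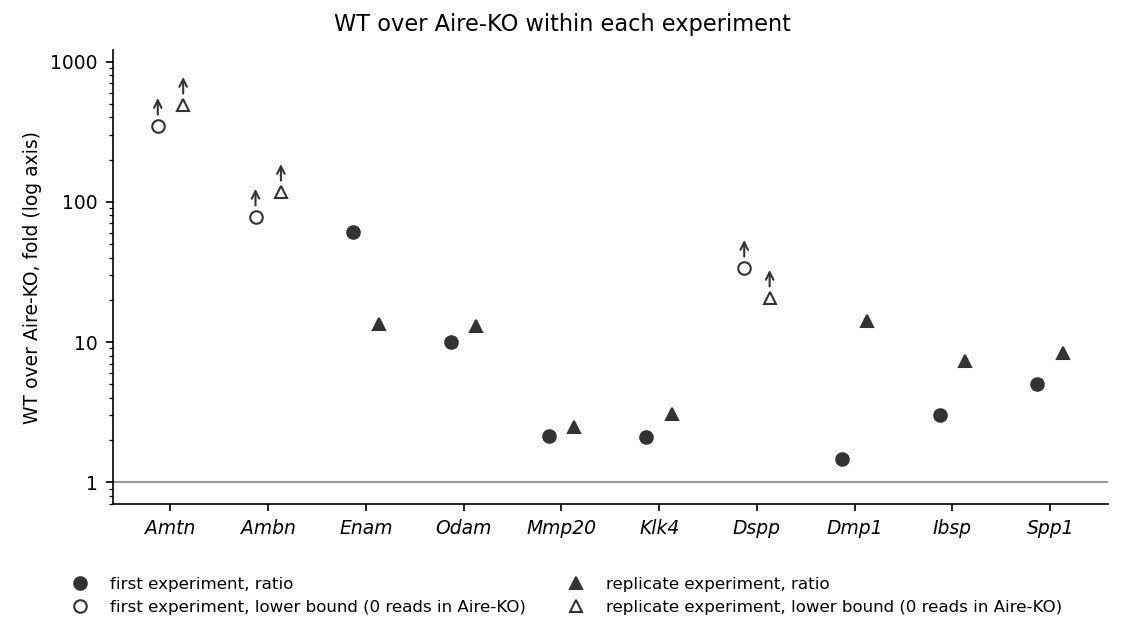
Fold difference of WT over Aire-KO (log axis) for each member in the first experiment (circles) and the replicate experiment (triangles), with open symbols and arrows for lower bounds against 3 counts where Aire-KO had 0 reads. All points lie above 1, from 1.47 for Dmp1 in the first experiment to a lower bound of 489 for Amtn in the replicate experiment.

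In all 10 members WT was above Aire-KO in each experiment, as it was in 37.5% of all RefSeq IDs tested. Because counts were taken on bulk RNA, fewer cells that express a gene and less RNA per cell cannot be told apart. The members also differed in how well the libraries of a genotype matched. In WT, Spp1, Ambn, Dmp1, Amtn, Odam and Klk4 stayed within 1.29-fold between the experiments, whereas Ibsp, Mmp20, Dspp and Enam were 2.19-fold to 7.12-fold higher in the first.

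**Figure D3:**
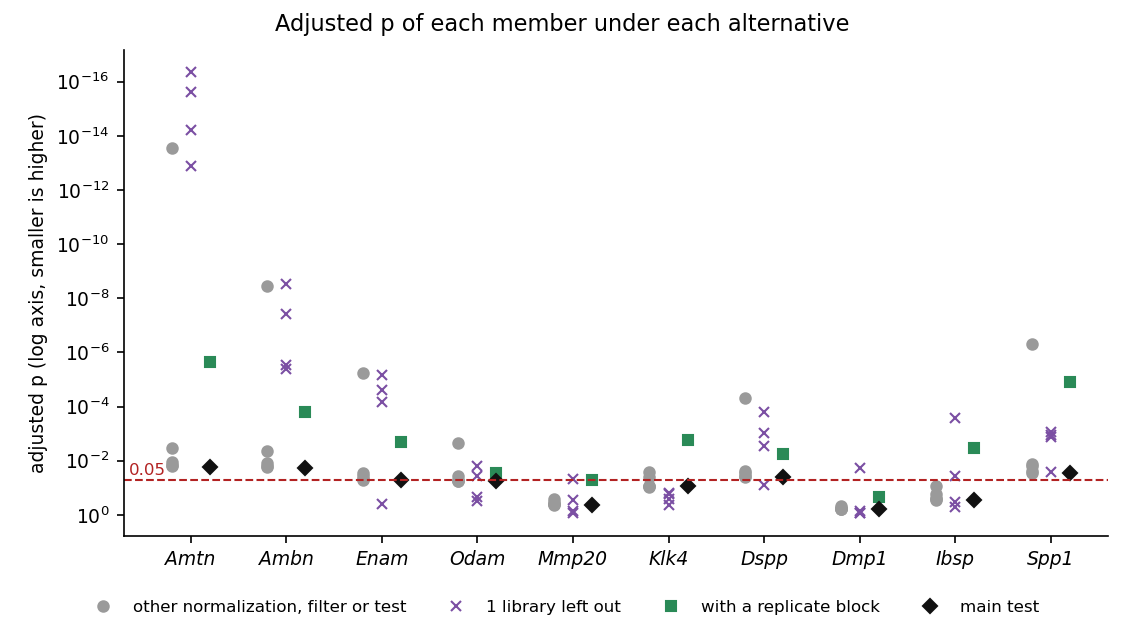
Adjusted p of each member (log axis, smaller values higher) in the main edgeR test (diamonds), with a replicate block (squares), without 1 library (crosses) and with other scalings, filters or tests (circles), and the threshold of 0.05 as a dashed line. Amtn, Ambn and Spp1 lie past the line throughout, Dspp crosses it once, and Mmp20 and Dmp1 pass it in 1 of 10 alternatives each.

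Per length, the WT levels spanned from Spp1 at 54.6 ± 3.05 RPKM (SD, n = 2) down to Dspp at 0.122 ± 0.0808. Spp1 stood at the 95.1 percentile of the 21257 genes for which RPKM could be computed, with no filter on reads. Klk4, at 21.3 ± 2.87 RPKM, stood at the 86.4 percentile. Amtn followed with 7.34 ± 0.916, Ibsp with 2.64 ± 1.495, Mmp20 with 1.12 ± 0.666, Ambn with 0.939 ± 0.0766 and Odam with 0.828 ± 0.0152. Enam at 0.296 ± 0.321 RPKM and Dmp1 at 0.207 ± 0.0205 were near the bottom. Neighbours in this order did not separate between Ibsp and Mmp20, between Mmp20 and Ambn, and between Enam and Dmp1, whose WT values overlapped. In Aire-KO the order changed, since Klk4 (6.80 ± 0.132 RPKM) lay beside Spp1 (7.004 ± 2.10 RPKM), while Amtn, the third in WT, had 0 reads.

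The levels per length are shaped by the exons of these genes. Only reads lying wholly inside an exon were counted, so an exon shorter than the 50 bp read collects none. Of the members, 6 have such exons, with 4 each in Ambn and Odam, 3 each in Dmp1 and Spp1, 2 in Amtn and 1 in Enam. The share of the transcript at which a counted read can start ranged from 45.3% in Odam to 94.5% in Dspp. When levels were divided by these start positions, the WT mean of Odam became 1.82 RPKM and that of Amtn 12.2 RPKM. Both genotypes have the same exons, so differences between them are not touched by this where reads are spread alike along the transcript. Reads of some members were not spread alike in all libraries, as given below.

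Where the reads lay along a transcript could be seen from the counts per part. Of the reads of Klk4, 60.1% to 66.6% were in the last part (the last coding exon with the 3′UTR, up to the proximal poly(A) site where a gene has one) in the 4 libraries, and for Spp1 the share was 61.4% to 65.5%. In Amtn, 34.0% and 32.7% of the WT reads were in the last part, and nearly all the rest lay in the coding exons before it, at nearly equal reads per bp (ratios of 1.12 and 1.04). Dmp1 had no read in its upstream coding exons in any library, but these 180 bp offer only 5 start positions to a 50 bp read. Enam had 12 reads in its upstream coding exons and 524 in the last part in the first WT library, against 0 and 42 in the second. In WT, Ambn had a ratio of last part to upstream of 3.96 and 4.28 per bp. With start positions in place of bp it was 1.53 and 1.65. The medians per bp in the WT libraries were 1.61 and 1.37, over genes with at least 10 reads in each part. In Mmp20 the ratio per bp was 2.84 and 1.47 in WT and 4.00 and 4.92 in Aire-KO. In Ibsp it was 2.57 and 0.751 in WT and 1.66 and 1.20 in Aire-KO.

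Spp1 was the only member with a d3′UTR, the stretch of 143 bp downstream of the proximal poly(A) site, after 682 bp of the last exon upstream of it. The d3′UTR ratio, reads per bp in the d3′UTR over reads per bp upstream, was 0.207 (434 against 9991 reads, exact 95% interval 0.188 to 0.228) and 0.221 (241 against 5212 reads, 0.193 to 0.251) in WT. In Aire-KO it was 0.199 (52 against 1249 reads, 0.147 to 0.262) in the first and 0.0834 (22 against 1258 reads, 0.0521 to 0.127) in the replicate experiment. All 4 lay under the medians over RefSeq IDs with a d3′UTR and at least 10 upstream reads, 8324 to 8662 IDs per library. These medians were 0.435 and 0.352 in WT and 0.415 and 0.339 in Aire-KO. Among these IDs, the Spp1 ratios stood at the 33.3 and 39.1 percentiles in WT and the 33.0 and 26.7 percentiles in Aire-KO. However, a d3′UTR this short loses 49 bp of start positions, and the ratios with lengths corrected for it were 0.293, 0.311, 0.280 and 0.118. The medians were not corrected in this way, so the corrected ratios cannot be set against them. The Aire-KO library of the replicate experiment stood apart from the other three.

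The test of the change in usage did not call Spp1 (log2 0.66, SE 0.43, adjusted p = 1, edgeR interaction). It called 0 of 8661 RefSeq IDs, of which 149 (1.72%) had an unadjusted p under 0.05. This is fewer than that threshold gives when nothing changes, so the test may be conservative. A gene that was not called may still differ in usage. Without the Aire-KO library of the first experiment the change in Spp1 was 1.35, and without that of the replicate experiment it was 0.10. Total Spp1 was lower in both Aire-KO libraries, whereas the interval of the ratio lay below those of WT in 1 of them.

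**Figure D4:**
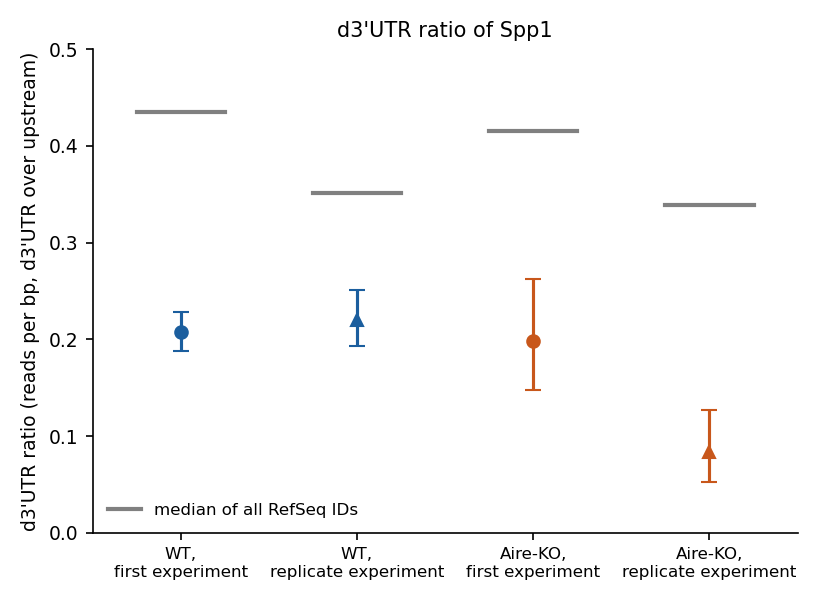
d3′UTR ratio of Spp1 in each library (blue WT, orange Aire-KO, circles for the first and triangles for the replicate experiment) with exact 95% binomial intervals of counting error. The grey line is the median over RefSeq IDs with a d3′UTR and at least 10 upstream reads in that library. The ratios are 0.207 and 0.221 in WT and 0.199 and 0.0834 in Aire-KO, each under its median. Ratios and medians are not corrected for lost start positions.

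The genes between and beside the members on chromosome 5 were not uniformly higher in WT. Of 12 such neighbours, 8 were tested. Their median log2 fold change was 2.97, against 3.08 for the members and −0.03 over all RefSeq IDs tested. The log2 fold change was positive for 6 of the 8. Without the WT library of the first experiment, 7 neighbours were tested and their median was 0.37, whereas that of the members was 2.94. The neighbours' median thus depended on that library. Both WT libraries lay above both Aire-KO libraries for 5 of the 12 and below them for 1 (28.4% and 20.9% of all RefSeq IDs tested). At an unadjusted p under 0.05, 4 were higher and 1 lower, as with DESeq2 and with the replicate block. With the main test 1 was higher in WT and 0 were lower (5.58% and 0.258% of all RefSeq IDs tested). The gene called was Smr3a, a salivary gland secretory gene, which had 226 and 150 counts in WT and 0 in both Aire-KO libraries (adjusted p = 0.0216). Its neighbour Prol1, which encodes a proline-rich secreted protein, had 179 and 8 counts in WT and 2 and 0 in Aire-KO (log2 6.10, adjusted p = 0.111). Cabs1, a gene of the testis, had 75 and 0 counts in WT and 2 and 15 in Aire-KO, so the experiments went opposite ways. Csn3, which encodes kappa-casein of milk and lies between Odam and Amtn, had 3.98 and 5.63 CPM in WT and 2.50 and 5.56 CPM in Aire-KO (log2 0.25, adjusted p = 0.876). Jchain, the immunoglobulin joining chain gene after Enam, had 3.64 and 7.52 CPM in WT and 0.619 and 0.152 CPM in Aire-KO (log2 3.86, adjusted p = 0.0518).

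Beside the SIBLING genes, Mepe, the remaining member of that family, had 70 and 30 counts in WT and 2 and 0 in Aire-KO (log2 5.45, adjusted p = 0.0778). Sparcl1, which encodes a secreted SPARC-like glycoprotein and lies next to Dspp, went the other way, with 15.4 and 7.56 CPM in WT and 57.1 and 38.2 CPM in Aire-KO (log2 −2.05, adjusted p = 0.0618). Pkd2, the polycystin gene after Spp1, overlapped between the genotypes (log2 −0.34, adjusted p = 0.807).

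**Figure D5:**
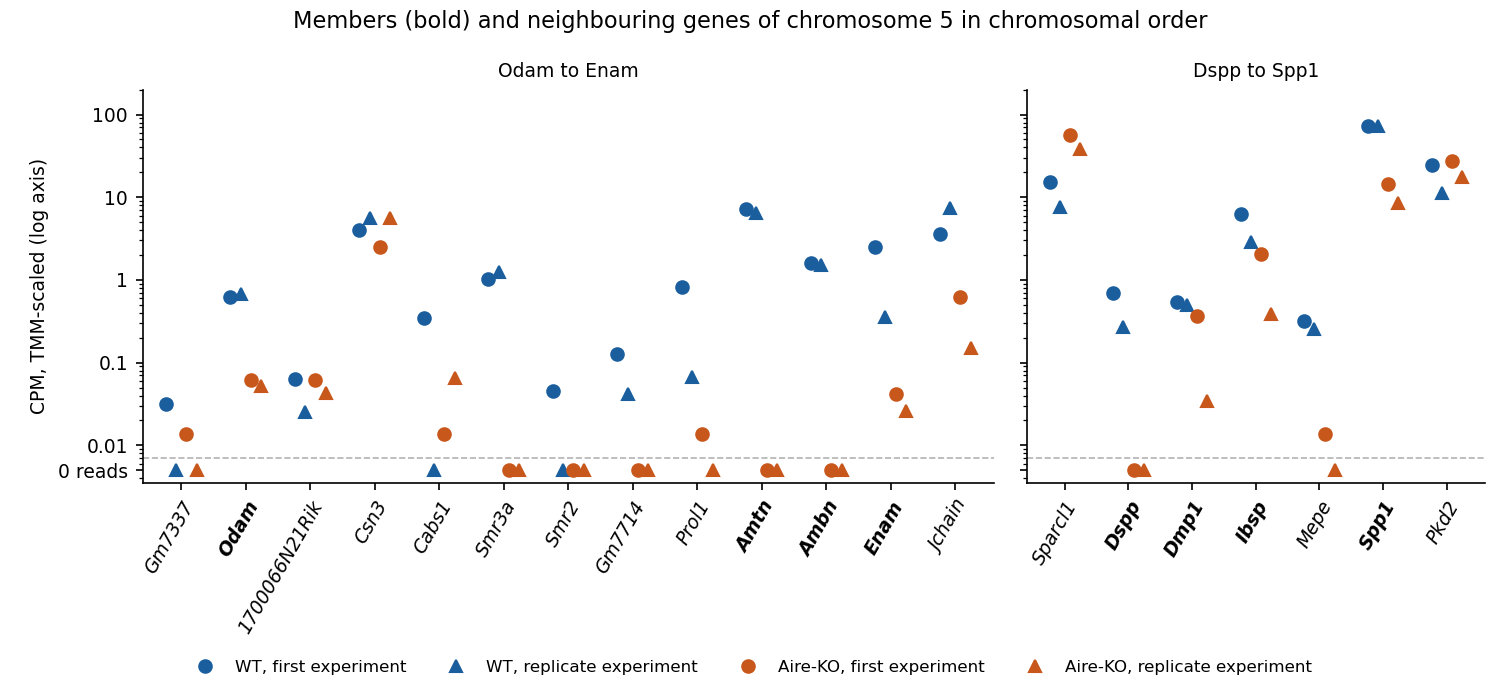
TMM-scaled CPM (log axis) of the members (bold) and their neighbours on chromosome 5 in chromosomal order, without distances, in each of the 4 libraries, with 0 reads drawn on the line at the bottom. Amtn, Ambn, Dspp, Smr3a, Smr2 and Gm7714 have 0 reads in both Aire-KO libraries, Csn3 and Pkd2 overlap, and the WT points of Sparcl1 lie below its Aire-KO points, a difference that was not called.

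Other genes of tooth and bone gave a mixed picture. Of 20 further genes of enamel formation, 1 was higher in WT and 0 were lower, against 5.58% and 0.258% of all RefSeq IDs tested. At an unadjusted p under 0.05, 5 were higher and 1 lower, and DESeq2 called 3 higher and 1 lower. With the replicate block 4 were higher and 3 lower (16.5% and 10.4% of all). Their median log2 fold change was 0.18 against −0.03 over all RefSeq IDs, and 0.07 to 0.31 when 1 library was left out. The gene called was Amelx, which encodes amelogenin, the main scaffold protein of enamel. It had 1811 and 1315 counts in WT (8.27 and 11.03 CPM) and 5 and 32 in Aire-KO (0.0344 and 0.139 CPM), a log2 fold change of 6.73 (SE 0.80, adjusted p = 0.0176). Amelx lies within an intron of Arhgap6 on the other strand, and reads of the pair cannot be told apart by strand here.

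Of 27 further genes of dentin and bone, 7 were higher in WT and 1 was lower, against 5.58% and 0.258% of all RefSeq IDs tested. With the block, 10 were higher and 4 lower (16.5% and 10.4% of all). DESeq2 called 10 higher and 3 lower, and 11 were higher and 4 lower at an unadjusted p under 0.05. Their median log2 fold change was 0.72, against −0.03 over all RefSeq IDs, and 0.50 to 1.01 when 1 library was left out. The gene with the smallest p was Alpl, the alkaline phosphatase that frees phosphate for mineral, with 24.0 and 33.2 CPM in WT and 3.35 and 3.75 CPM in Aire-KO (log2 3.01, adjusted p = 0.0197). Bglap, which encodes osteocalcin, had 3.56 and 7.01 CPM in WT and 0.206 and 0.113 CPM in Aire-KO (log2 5.06, adjusted p = 0.0204). Its near-identical copy Bglap2 (log2 3.66, adjusted p = 0.0289) may share reads with it. Fgf23, the phosphate-lowering hormone of osteocytes, had 4.14 and 2.99 CPM in WT and 0.310 and 0.165 CPM in Aire-KO (log2 3.91, adjusted p = 0.0279). The other genes called higher were Col11a1, Sp7 and Sost, and the gene called lower was Col1a2, a chain of type I collagen. The integrin chains and Cd44, the receptors of osteopontin and bone sialoprotein, were called in 0 of 9 cases (1 higher at an unadjusted p under 0.05, 0 with DESeq2, 1 higher and 1 lower with the block, and 1 higher without the Aire-KO library of the first experiment), with a median log2 fold change of 0.28.

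Some markers of macrophages and dendritic cells, of osteoclasts and of fibroblasts were called as well, and Spp1 is a gene that some of these cells express. Over all RefSeq IDs tested, the main test called 5.58% higher and 0.258% lower in WT. Both WT libraries lay above both Aire-KO libraries in 28.4%. Of 15 markers of macrophages and dendritic cells, 2 were higher in WT, Itgam (17.3 and 24.7 CPM in WT, 2.82 and 3.17 in Aire-KO) and Adgre1 (6.88 and 7.03 CPM in WT, 0.502 and 0.983 in Aire-KO). Ptprc, which encodes CD45, the surface protein the sort selected against, had 9.46 and 6.65 CPM in WT and 4.18 and 1.405 CPM in Aire-KO and was not called (log2 1.53, adjusted p = 0.223). Without 1 library, the markers higher in WT numbered 5 (WT, first experiment) or 6 (either Aire-KO library). At an unadjusted p under 0.05, 6 were higher and 1 lower, and DESeq2 called 5 higher. Both WT libraries lay above both Aire-KO libraries for 12 of the 15, and the median log2 fold change was 1.53. The summed level was 346 and 623 CPM in WT and 389 and 397 CPM in Aire-KO, most of it from Lyz2 (252 and 489 CPM in WT, 326 and 345 CPM in Aire-KO), so the sum overlapped while most single markers did not. Of 9 osteoclast markers, 3 were higher in WT, Calcr, Ocstamp and Atp6v0d2, which became 5 without either Aire-KO library and with DESeq2. Their median log2 fold change was 1.81, and 5 of the 9 were above Aire-KO in both WT libraries without overlap. The sum was 115 and 146 CPM in WT and 96.6 and 150 CPM in Aire-KO, most of it from Nfatc1 and Mmp9, neither of which was called (Mmp9 had 58.7 and 69.4 CPM in WT and 35.8 and 104 CPM in Aire-KO). Of 11 fibroblast markers, 3 were lower in WT, Dpt, Col1a2 and Col3a1, the median log2 fold change was −1.38, and the sum was 186 and 162 CPM in WT and 378 and 347 CPM in Aire-KO. Without the WT library of the replicate experiment 0 of the 11 were lower, and without that of the first 1 was. Of 12 thymocyte markers 0 were called with edgeR (5 higher at an unadjusted p under 0.05, 3 with DESeq2, 6 with the block). The median log2 fold change was 1.47, and 1.10 to 1.88 when 1 library was left out. It was positive for 11 of the 12 markers. Both WT libraries lay above both Aire-KO libraries for 9 of the 12 and below them for 1. The sums were 36.1 and 64.5 CPM in WT and 30.1 and 40.03 CPM in Aire-KO. Most of the Aire-KO sum came from Cd4 (10.7 and 16.3 CPM in WT, 18.0 and 22.4 CPM in Aire-KO), the marker that lay below. Of 7 tuft cell markers 0 were called with edgeR (0 at an unadjusted p under 0.05, 0 with DESeq2 and 2 higher with the block). Their median log2 fold change was 0.74, with sums of 314 and 572 CPM in WT and 288 and 262 CPM in Aire-KO. Both WT libraries lay above both Aire-KO libraries for 5 of the 7 and below them for 0. No marker of these lists was at 0 in all libraries. With the block, 6 macrophage and dendritic cell markers were higher and 1 lower, 5 osteoclast markers were higher, and 1 fibroblast marker was higher and 6 lower. The part of such cells in the values of the members was not tested.

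The genes whose levels over the 4 libraries were most like those of Spp1 were Plet1, a surface protein gene of epithelial progenitors, Klk7, a kallikrein of the skin, and Gm94. Likeness was the Euclidean distance of log2(CPM + 0.5) over the 4 libraries, which was 0.588 for Plet1, 0.787 for Klk7 and 0.799 for Gm94. Plet1 had 67.2 CPM in both WT libraries and 18.7 and 11.9 CPM in Aire-KO. For Klk4 the closest were Slc35f6 (0.278), the sterol reductase gene Dhcr7 (0.334) and the neurofilament gene Nefh (0.344), of which Nefh had 25.6 and 24.0 CPM in WT and 10.6 and 8.66 CPM in Aire-KO. These are descriptions over 4 libraries that share their genotype labels.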

How the data were processed

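The deposited values are raw counts per RefSeq ID and per transcript part, with no normalization. The authors made non-directional polyA libraries, reduced reads to single-end 50 bp, used CASAVA for filtering and Bowtie 1.0.0 for mapping to mm9, and counted reads wholly inside exons with bedtools. Symbols were matched for 30216 of 30794 RefSeq IDs (98.1%), and the ID with most counts stood for a gene. All IDs were tested with edgeR 4.0.16 (TMM factors 0.8604 to 1.144, filterByExpr, quasi-likelihood test, genotype only, R 4.3.3), with Benjamini-Hochberg adjustment over 26790 IDs. DESeq2 1.42.0, other scalings, no filter, 1 ID per gene, leaving out each library and a replicate block were alternatives. The experiment number pairs the libraries, since the study calls the second a replicate experiment, and deviations of the same experiment correlated at 0.515 over 19771 genes. Usage of the d3′UTR was tested as an interaction of region and genotype. Intervals and floors cover counting error only. On simulated data for this comparison (26790 IDs, 200 of them changed) the genotype test called 26% of those changed 4-fold, 93% of those changed 16-fold, and 3 unchanged IDs. Exons and mm9 positions are from GENCODE.

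The members and lists were chosen with earlier results of these data known. Named genes are the members, their tested chromosome 5 neighbours, the 4 genes of each list with the smallest p among those called, and the 3 genes closest to Spp1 and Klk4. Any other gene named was chosen after its values were seen. Features of the proteins were not analysed here, and 1 promoter sequence is not reported here.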

Additional observations from a re-analysis of the deposited data

How the results depend on the processing

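Of the alternatives, all 10 kept every member higher in WT. With library sizes as the only scaling, the median over all RefSeq IDs was 0.26 on the log2 scale in place of −0.03, with 2470 IDs and 7 members higher. DESeq2 gave 3528 higher and 565 lower, with 7 members higher, and no filter on low counts gave 143 lower. With the replicate block 4428 were higher and 2777 lower, against 1495 and 69 without it, and 8 members were higher. The block changed the calls of Enam, Odam, Ibsp and Klk4 and of no other member. Without 1 library, 1524 to 3664 IDs were higher, 66 to 521 lower and 3 to 9 members higher. The library that remains alone in its genotype is then assumed to vary like the others. The cause of these shifts was not tested. The median WT level of the members was 1.03 RPKM, and 1.57 when divided by start positions of 50 bp reads, a choice made after the data were seen. The mean WT d3′UTR ratio of Spp1 was 0.214, and 0.302 with 49 bp taken off each length. With 2 libraries per genotype, the simulated 4-fold changes were recovered in 26% of cases, so a member that was not called may still differ by that much.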
